A study of Rattus norvegicus with 31 samples.

Results

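The left ventricle lives mainly on fatty acids, and 30 genes that move, oxidise and store them were followed in rats of the HXB/BXH recombinant inbred panel and of both progenitor strains. The genes were taken by name: the enzymes and carriers of mitochondrial fatty acid oxidation, the proteins that store and release triglyceride, and the regulators of fuel choice. All 30 were found among 19100 genes of the table counted on RefSeq genes, which held the recombinant inbred strains. In the table of 46063 genes that the authors assembled from their reads, which also held both progenitors, 24 of the 30 had a gene that carried their name alone, 3 shared an assembled gene with a neighbour or a near copy, and 3 had no assembled gene of that name.

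Total RNA depleted of ribosomal RNA was sequenced from the left ventricle of naive male rats, in 31 libraries and 3 sequencing batches. SHR/OlaIpcv (SHR) is a strain with spontaneous hypertension, BN-Lx/Cub (BN-Lx) a congenic strain of Brown Norway background, and each was represented by 4 rats in batch 1. SHR replicate 4 was sequenced again in batches 2 and 3. The 12 HXB and 9 BXH strains, which are inbred mosaics of both progenitor genomes from reciprocal crosses, had 1 rat and 1 library each, of which 3 HXB and 3 BXH were in batch 2 and 9 HXB and 6 BXH in batch 3. No group was treated or carried a transgene, and each recombinant inbred strain rests on a single animal, so a strain and its one library cannot be told apart. Values were log2 levels made by the authors, whose transformation and depth are unknown, and all differences below are on that log2 scale.

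Fatty acids reach the mitochondrial matrix as acylcarnitines. Carnitine palmitoyltransferase 1 makes them at the outer membrane, the translocase Slc25a20 carries them across the inner membrane, and Cpt2 turns them back into acyl-CoA. Each turn of the oxidation cycle then uses an acyl-CoA dehydrogenase, a hydratase, a hydroxyacyl-CoA dehydrogenase and a thiolase, and electrons of the dehydrogenase pass through the flavoprotein of Etfa and Etfb to Etfdh and on to ubiquinone. The nuclear receptor PPAR alpha, encoded by Ppara, activates many of these genes and is itself activated by fatty acids, for which Cpt1a, Pdk4, Ucp3 and Angptl4 are well known targets.

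The promoters of 5 members are shown here because these genes either moved together across strains (Pdk4 and Ucp3, and Hadha with its neighbour Hadhb), varied most between strains (Angptl4), or were higher in SHR with the other targets (Cpt1a). Each run holds the 250 bases before the RefSeq start of the gene in build GRCr8, 5′ to 3′ on the strand of the gene. Hadha lies at chr6:31907551-31907800 (plus strand), Pdk4 at chr4:34568330-34568579 (minus), Ucp3 at chr1:164227660-164227909 (plus), Angptl4 at chr7:15258682-15258931 (minus) and Cpt1a at chr1:209995910-209996159 (plus). Capitals mark matches, on either strand, to any of the motifs listed after the sequences.
Hadha: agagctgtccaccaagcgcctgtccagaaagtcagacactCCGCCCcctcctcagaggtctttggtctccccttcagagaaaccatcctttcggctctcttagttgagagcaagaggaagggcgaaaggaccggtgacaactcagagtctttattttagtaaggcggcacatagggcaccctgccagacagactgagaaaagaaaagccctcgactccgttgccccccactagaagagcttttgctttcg
Pdk4: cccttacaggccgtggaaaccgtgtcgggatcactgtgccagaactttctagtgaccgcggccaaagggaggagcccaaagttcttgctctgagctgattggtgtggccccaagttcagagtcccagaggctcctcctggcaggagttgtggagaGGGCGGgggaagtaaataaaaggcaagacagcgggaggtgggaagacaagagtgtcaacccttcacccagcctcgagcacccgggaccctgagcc
Ucp3: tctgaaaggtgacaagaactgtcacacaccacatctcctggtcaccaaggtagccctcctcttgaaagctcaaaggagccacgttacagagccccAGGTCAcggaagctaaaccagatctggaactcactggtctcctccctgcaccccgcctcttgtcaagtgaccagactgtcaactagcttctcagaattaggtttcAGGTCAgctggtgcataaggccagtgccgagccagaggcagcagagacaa
Angptl4: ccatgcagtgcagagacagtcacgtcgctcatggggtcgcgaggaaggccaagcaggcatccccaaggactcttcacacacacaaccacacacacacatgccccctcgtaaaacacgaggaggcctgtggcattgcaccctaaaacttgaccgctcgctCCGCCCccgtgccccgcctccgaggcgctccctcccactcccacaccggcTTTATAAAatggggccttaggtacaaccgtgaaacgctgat
Cpt1a: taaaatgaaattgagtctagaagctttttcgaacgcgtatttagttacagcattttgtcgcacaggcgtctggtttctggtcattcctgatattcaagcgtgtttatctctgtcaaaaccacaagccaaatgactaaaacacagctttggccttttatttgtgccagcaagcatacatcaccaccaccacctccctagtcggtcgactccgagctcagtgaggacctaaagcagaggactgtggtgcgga

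Windows were given for 25 of the 30 members. The motifs searched were the repeat bound by PPAR and its partner (AGGTCA, any 1 base, AGGTCA), the site of the oestrogen-related receptors (TCAAGGTCA), the single nuclear receptor motif (AGGTCA, which is part of both), the cyclic AMP element (TGACGTCA), the TATA box (TATAAA) and the GC box (GGGCGG). Neither the full PPAR repeat nor the oestrogen-related receptor site was found in any of the 25 windows, and over all 33469 windows they were in 0.0508% and 0.388%. The single AGGTCA was in 4 members, Acadvl, Eci1, Ucp3 and Plin5 (14.1% of all windows), and Ucp3 held it at 155 to 150 and at 50 to 45 bases before the start. Angptl4 was the one member with TATAAA, in an overlapping pair of matches that starts 41 bases before its start (12.9% of all windows). The cyclic AMP element was in Acadm and Ppargc1a (1.59%), and the GC box was in 17 members, Hadha, Pdk4 and Angptl4 among them (30.5%). The Cpt1a window held none of the motifs. Hadha and Hadhb, which encode the subunits of the mitochondrial trifunctional protein, start 301 bases apart on opposite strands, so that their windows share 200 bases. These matches describe letters in these windows and say nothing of factors bound elsewhere.

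SHR and BN-Lx, the parents of the panel, were compared first. Genes of this group went in both directions: 6 of 24 were higher in SHR (Cpt1a, Acaa2, Pdk4, Ucp3, Angptl4 and Ppara) and 3 were lower (Acads, Hadh and Etfdh), in limma with Benjamini-Hochberg adjustment over 46063 genes at 0.05. Of all genes 14.3% were called, 7.38% higher and 6.95% lower, and of 12911 genes with a named symbol 20.5% were called (11.1% higher and 9.42% lower). The median difference of the 24 members was 0.0214 and that of all genes 0.012, with 13 members above 0 and 11 below. In 10 of the 24 members the 4 SHR values and the 4 BN-Lx values did not overlap, against 20.6% of all genes.

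Of the genes of mitochondrial entry, Cpt1a differed between the strains. Cpt1a (chromosome 1, 200564634 to 200627059, build rn7), the carnitine palmitoyltransferase 1 form best known from liver, was 10.87, 10.90, 10.84 and 10.95 in the BN-Lx rats and 11.27, 11.37, 11.32 and 11.36 in the SHR rats. Every SHR value lay above every BN-Lx value, and the spread within each strain was small beside the gap between them. The difference was 0.44 (SE 0.07, limma adjusted p = 0.000862). Cpt1b, the muscle form of the same enzyme, was 14.26 ± 0.10 in BN-Lx and 14.28 ± 0.09 in SHR (SD, n = 4 each; difference 0.02, SE 0.07). Neither Cpt2 nor Slc25a20 passed, each with a difference of 0.03 (SE 0.07 and 0.08), so Cpt1a was the one called gene among these 4.

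Inside the cycle, Acaa2 was higher in SHR, and Acads and Hadh were lower. Acaa2 (chromosome 18, 68345136 to 68373246), a thiolase that releases acetyl-CoA, was 14.31, 14.02, 14.30 and 13.99 in BN-Lx and 15.02, 14.88, 14.78 and 14.75 in SHR. The groups were far apart, and the difference of 0.70 (SE 0.09, limma adjusted p = 0.00028) is a 1.63-fold higher level. Acads (chromosome 12, 41493650 to 41502897), the dehydrogenase of short chains, was 13.45, 13.22, 13.30 and 13.11 in BN-Lx and 13.05, 12.84, 12.68 and 12.91 in SHR. Here the SHR values all lay below the BN-Lx values, by a narrow margin at the edges (difference -0.40, SE 0.09, limma adjusted p = 0.0117). Hadh, the dehydrogenase of short and medium 3-hydroxyacyl-CoA, was 14.04 ± 0.15 in BN-Lx and 13.78 ± 0.08 in SHR (difference -0.26, SE 0.08, limma adjusted p = 0.0466). The call depended on single rats: leaving out BN-Lx replicate 1, 3 or 4 gave an adjusted p = 0.119, 0.128 and 0.0512, and leaving out SHR replicate 2, 3 or 4 gave 0.0921, 0.0867 and 0.133.

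The other dehydrogenases did not pass. Acadm, which acts on medium chains, differed by -0.25 (SE 0.08, limma adjusted p = 0.0565) and passed without BN-Lx replicate 4 (0.04) or SHR replicate 1 (0.0393). Acadl, the long-chain enzyme, was 13.16, 13.80, 13.23 and 13.76 in BN-Lx and 13.84, 13.68, 13.78 and 13.83 in SHR. Its BN-Lx rats fell into a low pair, 1 and 3, and a pair at the SHR level, 2 and 4. Hadha did not overlap between the strains (14.55 to 14.69 in BN-Lx, 14.71 to 14.84 in SHR), yet its difference of 0.18 (SE 0.06) did not pass (limma adjusted p = 0.0785). It did pass after quantile normalization, with 0.30 (adjusted p = 0.00306). Acadvl, which takes very long chains, and Ech1, Eci2 and Decr1, which handle the double bonds of unsaturated fatty acids, had differences between -0.21 and -0.03 and did not pass. Decr1 passed without BN-Lx replicate 2, with -0.32 (adjusted p = 0.0479).

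Of the electron carriers that serve the dehydrogenases, Etfdh was lower in SHR and Etfa was not called. Etfdh (chromosome 2, 164735896 to 164762754) was 13.85, 13.62, 13.87 and 13.67 in BN-Lx and 13.52, 13.49, 13.45 and 13.34 in SHR (difference -0.30, SE 0.08, limma adjusted p = 0.0197). The ranges did not overlap, but leaving out SHR replicate 4 (adjusted p = 0.0693), BN-Lx replicate 1 (0.0566) or BN-Lx replicate 3 (0.0619) ended the call. Etfa differed by -0.08 (SE 0.10). Etfb differed by -0.17 (SE 0.07, adjusted p = 0.13) and passed without SHR replicate 1, with -0.23 (adjusted p = 0.0294).

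The known targets of PPAR alpha that limit glucose use or handle excess fatty acid were higher in SHR, and so was the gene total of the receptor. Angptl4 (chromosome 7, 14550288 to 14557797), a secreted inhibitor of lipoprotein lipase, was 5.36, 5.13, 5.46 and 6.39 in BN-Lx and 6.54, 7.27, 6.86 and 7.31 in SHR. BN-Lx replicate 4 came close to the lowest SHR rat, and the other BN-Lx rats lay far below it. The difference of 1.41 (SE 0.26, limma adjusted p = 0.00351), 2.66-fold, was the largest of the 24 members. Pdk4 (chromosome 4, 33589894 to 33601798), the kinase that shuts off pyruvate dehydrogenase, was 10.44, 11.08, 10.40 and 11.03 in BN-Lx and 11.25, 11.43, 11.51 and 11.60 in SHR. The BN-Lx rats split again into 1 and 3 (low) and 2 and 4 (high), with all SHR rats above them (difference 0.71, SE 0.15, limma adjusted p = 0.0073). Ucp3 (chromosome 1, 154815777 to 154829077), an inner membrane carrier that follows fatty acid supply in muscle, was 8.50, 8.41, 8.57 and 8.62 in BN-Lx and 8.94, 9.26, 9.29 and 9.51 in SHR. There was a clear gap between the strains (difference 0.73, SE 0.12, limma adjusted p = 0.00138). Ppara (chromosome 7, 116832405 to 116902898) was 11.94, 12.25, 12 and 12.22 in BN-Lx and 12.45, 12.44, 12.66 and 12.57 in SHR. Its BN-Lx rats alternated in the same way, below all SHR rats (difference 0.43, SE 0.09, limma adjusted p = 0.00602). Ppara transcripts went in both directions, and its total includes forms that take in introns, as given below. Its coactivator Ppargc1a did not pass (difference -0.20, SE 0.12), nor did Mlycd, which removes the malonyl-CoA that inhibits carnitine palmitoyltransferase 1 (difference 0.10, SE 0.08).

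Among the storage genes, the assembled gene named Plin5, a lipid droplet coat of oxidative tissue, differed by 0.15 (SE 0.10) and did not pass. It holds transcripts that lie apart from each other, as given at the end, so this value may not be that of Plin5 alone. The assembled gene that holds Pnpla2, the first lipase of triglyceride breakdown, also carries the name of its neighbour Cracr2b. It fell by 0.34 (SE 0.07, limma adjusted p = 0.00523), from 12.31 ± 0.04 in BN-Lx to 11.97 ± 0.09 in SHR, and the value cannot be assigned to one of these genes. The assembled genes of Hadhb and Selenoi (difference -0.11, SE 0.08) and of Acot2 and Acot3 (0.09, SE 0.09) did not pass. Acot1, Plin2 and Eci1 had no assembled gene of their name and were not compared between the progenitors.

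**Figure D1:**
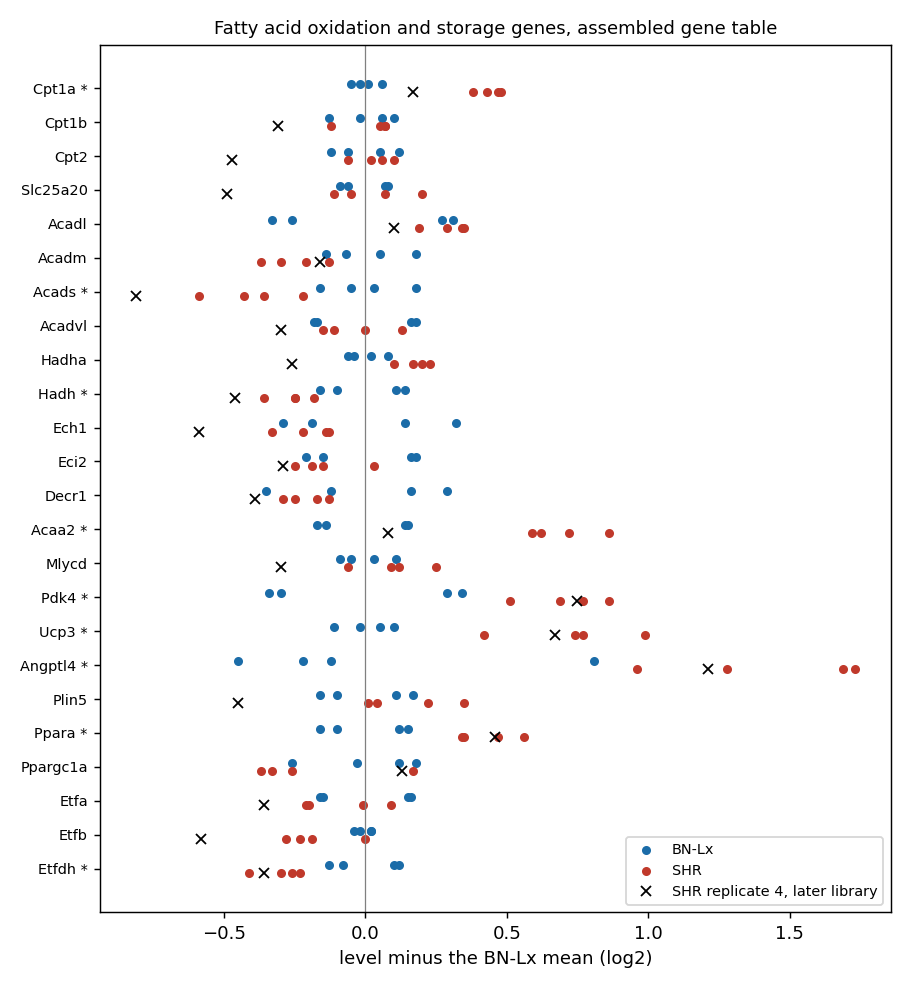
Levels of the 24 members with an assembled gene of their own in each library, minus the BN-Lx mean of that gene, on a log2 axis. Blue points are the 4 BN-Lx rats, red points the 4 SHR rats, the cross is the later library of SHR replicate 4, and an asterisk marks a limma call. Cpt1a, Acaa2, Pdk4, Ucp3, Angptl4 and Ppara lie to the right in all 4 SHR rats, and Acads, Hadh and Etfdh to the left.

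Several measures moved with these differences. BN-Lx replicates 1 and 3 lay together against 2 and 4 in many genes: over 10045 genes their deviations from the strain mean correlated at 0.21 (1 with 3) and 0.22 (2 with 4) and at -0.64 to -0.55 across the pairs. Deviations of 4 rats from their own mean cancel out, so negative correlations among them arise partly by construction. In 14 of the 24 members both of 1 and 3 were above both of 2 and 4, and in 7 both were below. Of all assembled genes 43.7% showed either order, which chance alone gives in part of them. The labels give no cage, litter, feeding state or hour of collection. Dbp, a gene of the circadian clock, was 9.46, 9.37, 9.23 and 9.24 in BN-Lx and 10.19, 10.29, 10.03 and 9.72 in SHR (difference 0.73, SE 0.12, limma adjusted p = 0.0014), and its part in the members' differences was not tested.

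The later library of SHR replicate 4 was lower than the batch 1 library of the same rat in 21 of 24 members, by a median of -0.31 (-0.80 to 0.50). For Acaa2 it was 14.24, within the BN-Lx range, and for Cpt1a 11.06, between the strains, whereas for Pdk4 (11.49), Ucp3 (9.19), Angptl4 (6.79) and Ppara (12.56) it lay among the SHR rats of batch 1. The assembled gene named Plin5 had the largest gap, with 14.51 in batch 1 and 13.71 later. A repeat-library score was made for each library, as the slope of its deviations on that difference over genes with a mean above 8. It ran from 0.0649 to 0.167 in BN-Lx and from -0.301 to 0.0511 in SHR, so the groups did not overlap and strain and score cannot be told apart. The batch 1 library of SHR replicate 4 is part of that difference and was scored as well (-0.225), so its score is partly fixed by construction. With the score as a covariate, an alternative chosen after seeing the data, Cpt1a (0.46, SE 0.11), Acaa2 (0.67, SE 0.15), Ucp3 (0.85, SE 0.19) and Acads (-0.58, SE 0.13) stayed past the threshold, and 3.12% of all genes were called (1.57% higher and 1.55% lower). Angptl4 (1.58, limma adjusted p = 0.0741), Pdk4 (0.67, 0.193), Ppara (0.45, 0.131), Etfdh (-0.24, 0.349) and Hadh (-0.20, 0.455) did not. Over 16 alternatives Cpt1a, Acaa2 and Ucp3 were called in 16, Angptl4 in 15, Acads, Pdk4 and Ppara in 14, Etfdh in 10 and Hadh in 5.

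In bulk tissue, fewer cells of a type and less RNA per cell cannot be told apart. Heart muscle was present as labelled: the summed level of 7 cardiomyocyte markers was 21.36 to 21.54 in BN-Lx and 21.15 to 21.37 in SHR (log2 of the sum), and 2 of them, Tnni3 and Tnnt2, were lower in SHR. Endothelial markers were higher in SHR in 5 of 7, with a sum of 15.60 to 15.67 in BN-Lx and 15.73 to 15.89 in SHR. Of 7 adipocyte markers 2 had an assembled gene, Cfd and Cidec. Neither passed in limma (unadjusted p under 0.05 in 0), and their sum was 6.82 to 7.31 in BN-Lx and 6.92 to 7.73 in SHR. Macrophage markers were lower in 3 of 5 (12.61 to 12.76 and 12.28 to 12.57), smooth muscle and pericyte markers higher in 2 of 5 (13.14 to 13.32 and 13.34 to 13.37), and fibroblast markers had 1 higher and 1 lower of 6 (15.31 to 15.41 and 15.30 to 15.59). Lymphocyte markers had 1 higher and 1 lower of 6 (6.61 to 7.38 and 6.60 to 7.20), atrial markers 1 and 1 of 4 (11.92 to 13.12 and 12.09 to 13.44), mesothelial markers 0 and 2 of 3 (10.15 to 10.34 and 9.90 to 10.13) and skeletal muscle markers 0 and 2 of 3 (5.83 to 6.66 and 4.73 to 5.30). The part of cell composition in the members' differences was not tested.

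The wider pathway was read from lists of neighbouring genes. Of 16 genes of fatty acid uptake and activation, 4 were higher and 2 lower in SHR (median difference 0.0496). Gpihbp1, which holds lipoprotein lipase on the capillary wall, was 9.96 ± 0.18 in BN-Lx and 10.89 ± 0.13 in SHR (limma adjusted p = 6.27e-05), Vldlr, a lipoprotein receptor, rose by 0.30 (adjusted p = 0.00732), and Lpl, the lipase that Angptl4 inhibits, fell by 0.29 (SE 0.06, adjusted p = 0.00727). Other enzymes of mitochondrial oxidation split evenly, with 5 higher and 5 lower of 17 (median -0.0737). Echs1, the short-chain hydratase of the cycle, fell by 0.61 (adjusted p = 5.86e-05), Ivd, which oxidises a leucine product, fell by 0.46 (0.000991), and Bdh1, which makes and uses ketone bodies, rose by 0.58 (0.00166).

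Of 17 genes of the lipid droplet and triglyceride turnover 6 were higher and 1 lower (median 0.159). Those with the smallest p were Dgat2, which rose by 0.72 (limma adjusted p = 0.000308), Gpam by 0.42 (0.000693) and Agpat3 by 0.38 (0.00159), all 3 enzymes of glycerolipid synthesis. The higher genes also included the lipases Mgll (0.45, adjusted p = 0.00244) and Lipe (0.32, 0.0163), which break triglyceride and its products down and are named after their values were seen. In peroxisomes, 2 of 15 genes were lower, Ehhadh (-0.56) and Abcd3 (-0.35), with a median of -0.0454. Of 15 nuclear receptors and coregulators 1 was higher (Pprc1, 0.48) and 3 were lower, among them Sirt3, a mitochondrial deacetylase (-0.57), and Klf15 (-0.52), with a median of -0.0206. Of 9 genes of the pyruvate dehydrogenase complex and its regulators, Pdp1, the activating phosphatase, rose by 0.44 (adjusted p = 0.00555), while Pdk1, another inhibiting kinase, fell by 0.43 (0.000823) and Pdhx, a structural subunit, by 0.26 (0.0482), with a median of -0.118. Limma called 0 of 10 genes of malonyl-CoA and AMP kinase, of which 0 had an unadjusted p under 0.05 (median 0.0819). Shares called in these lists ran from 0% to 58.8%, beside 37.5% for the 24 members.

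Single transcripts of the members showed differences that the gene totals hid. Of 90 transcripts assembled for the 24 genes, 8 were higher and 3 lower in SHR in limma, against 5.53% of 91969 transcripts called (2.72% higher and 2.81% lower). All 3 lower ones belonged to Etfdh. The main Etfdh transcript, of 13 exons, did not pass, with 13.56 ± 0.23 in BN-Lx and 13.31 ± 0.14 in SHR (difference -0.25, SE 0.13, limma adjusted p = 0.317). A form of 14 exons with an additional 3′ exon of 62 bases (chromosome 2, 164740140 to 164740201, rn7, minus strand) was 9.05, 8.98, 9.35 and 9.28 in BN-Lx and 5.34, 6.40, 6.32 and 6.05 in SHR. The strains were widely separated, with a difference of -3.14 (SE 0.25, limma adjusted p = 0.000211) beside -0.30 for the whole gene. A form whose last exons run on to 164735896 fell by 1.58 (SE 0.19, adjusted p = 0.00221), and one with an additional exon of 188 bases (164762101 to 164762288) fell by 1.43 (SE 0.21, adjusted p = 0.00545). In the fit of all groups with a batch term none of these 3 passed (adjusted p = 0.0769, 0.0768 and 0.0747), and the third was also lost with the score (0.0555).

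The highest rises were in Ppara. A form of 8 exons, of which one spans 16859 bases and another 17516 bases of the gene (chromosome 7, 116833700 to 116850558 and 116857202 to 116874717), was 4.84, 3.24, 3.28 and 3.30 in BN-Lx and 8.93, 8.32, 8.85 and 8.46 in SHR. No SHR rat came near a BN-Lx rat, the difference was 4.97 (SE 0.38, limma adjusted p = 0.000187), and the call held in all 15 alternatives. A form of 10 exons that add up to 48513 bases rose by 1.55 (SE 0.24, adjusted p = 0.00661; 0.0515 with all groups in the fit and 0.0709 with the score). Exons of such length take in stretches that are introns of shorter Ppara forms. A form of 7 exons was 1.74, 6.72, 6.49 and 4.93 in BN-Lx and 9.74, 9.26, 9.18 and 9.56 in SHR (difference 4.46, SE 0.96, adjusted p = 0.0302), and leaving out BN-Lx replicate 4 (0.0734) or any one of SHR replicates 1 to 4 (0.0769, 0.0714, 0.0686 and 0.0785) ended this call. The Ppara form with the highest level in BN-Lx, of 9 exons and 8481 bases, went the other way and did not pass. It was 10.12 ± 0.16 in BN-Lx and 8.50 ± 1.11 in SHR (difference -1.62, SE 0.47, limma adjusted p = 0.0872). A form of 8 exons and 2353 bases differed by 0.15 (SE 0.19). The sources used here do not give how reads were shared out among 16 overlapping Ppara forms.

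The other called transcripts went the way of their genes where the gene was called. These were the main forms of Acaa2 (0.81, SE 0.13), Cpt1a (20 exons, 0.74, SE 0.14), Pdk4 (10 exons, 1.09, SE 0.21) and Ucp3 (7 exons, 1.02, SE 0.17). A weak form of Ppargc1a with 14 exons was 3.70 ± 0.24 in BN-Lx and 5.23 ± 0.61 in SHR (1.54, SE 0.36, limma adjusted p = 0.0404). The later library of SHR replicate 4 lay below all batch 1 SHR rats for Acaa2 (14.11) and Cpt1a (10.76). It lay among them for Pdk4 (11.16), Ucp3 (9.04) and Ppargc1a (5.04). The Cpt1a call was lost without SHR replicate 2 (adjusted p = 0.0524), and that of Pdk4 without BN-Lx replicate 3 (0.0578) or SHR replicate 2, 3 or 4 (0.0574, 0.0567 and 0.0631). That of Ppargc1a ended when any one of BN-Lx replicates 1 to 4 (0.0976, 0.0717, 0.0942 and 0.075) or SHR replicate 1, 3 or 4 (0.0844, 0.103 and 0.111) was left out.

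**Figure D2:**
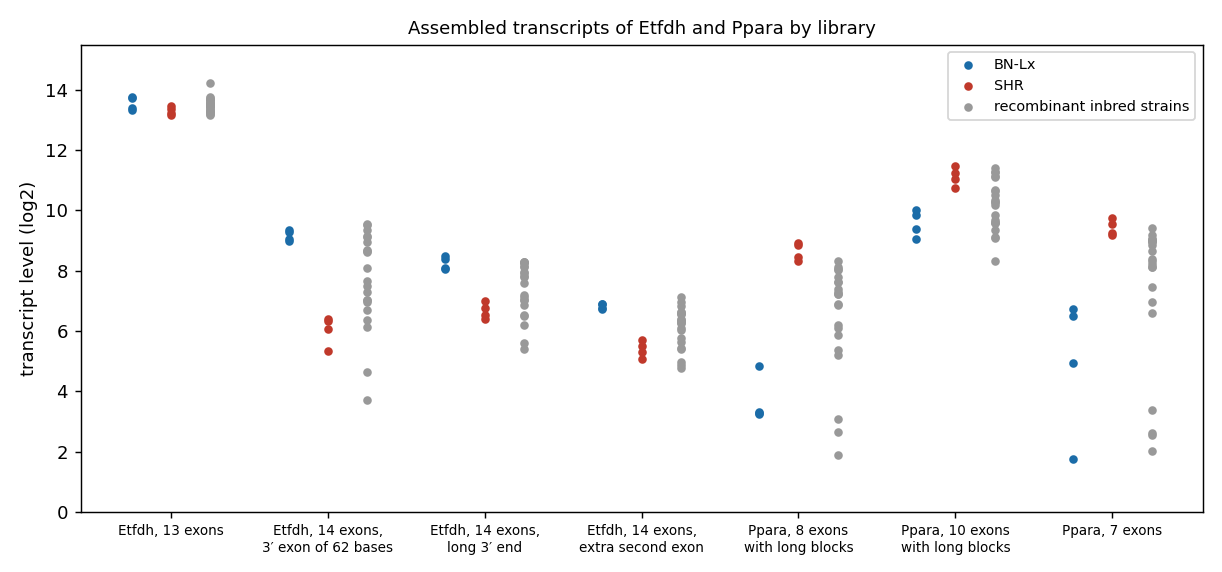
Levels (log2) of 4 assembled transcripts of Etfdh and 3 of Ppara in BN-Lx (blue), SHR (red) and the 21 recombinant inbred strains (grey), one point per library. The main Etfdh transcript overlaps between the strains, while its form with a 3′ exon of 62 bases has a mean of 9.16 in BN-Lx and 6.03 in SHR, and the strains of the panel spread from 3.71 to 9.54.

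In the same table the recombinant inbred strains spread over both progenitor levels, as a description because they were sequenced in other batches. For the Etfdh form with the 62-base exon, 3 strains lay in the BN-Lx range, 2 in the SHR range and 12 between them. For the long Ppara form of 8 exons, 17 of 21 strains lay between the progenitors and 1 reached the SHR range. The later library of SHR replicate 4 lay between the progenitors too, at 6.91 beside 8.46 in batch 1. Strain and batch therefore cannot be told apart in these positions. Among whole genes, Cpt1a ran from 10.88 to 11.49, with 12 strains between the progenitor ranges, and Acaa2 from 13.98 to 15.56, with 9 between them. Acads ran from 12.72 to 13.71. For it 8 strains were at or above the lowest BN-Lx rat, 11 at or below the highest SHR rat and 2 between the ranges.

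Over the 21 strains, measured on RefSeq genes, the median spread of the members was near that of all genes. Their levels were unlike, with a median of 13 for the members and 7.91 for all genes, and genes of like level were not compared. The median SD was 0.175 for the 30 members and 0.177 for all 19100 genes, and 15 of the 30 were above the latter. The later libraries of SHR replicate 4 differed by a median of 0.0574 for the members and 0.0919 for all genes, which is the technical spread of 1 rat. Angptl4 varied most, with an SD of 0.55 and a range from 5.81 in HXB3 to 7.86 in BXH9, which is 4.12-fold. After it came Pnpla2 (SD 0.34, 11.72 to 12.78), Acot1 (0.33, at a low level of 3.69 to 5.06), Acaa2 (0.32, 14.26 to 15.51) and Pdk4 (0.29, 9.20 to 10.17). Plin5 (0.27) and Ucp3 (0.25) followed. Hadha (0.08, 14.79 to 15.08) and Plin2 (0.09), the droplet coat found in most tissues, varied least.

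One strain stood apart. BXH8 had the highest level of 20 of the 30 members (66.7%), while it was highest in 8.16% of all genes, and it was above the strain median in 28 of 30. Among 19 enzymes and carriers of oxidation it was highest in 15. The median excess of BXH8 over the median of the other 20 strains was 0.41 for the members and -0.0032 for all genes. Acaa2 was 15.51 in BXH8, beside 14.26 to 15.10 in the other strains, and Decr1 was 12.83 beside 11.96 to 12.53. Ech1 was 14.70 beside 14.01 to 14.48, and Hadhb was 15.94 beside 15.27 to 15.65, so for these 4 the library lay outside the whole range of the rest. Acot1, the cytosolic thioesterase, was 5.06 beside 3.69 to 4.77. The members that were not raised in BXH8 include the nuclear receptor gene Ppara and its coactivator Ppargc1a. Ppara was 11.68 (others 11.46 to 11.87) and Ppargc1a, at 11.23, was the lowest of all strains (others 11.24 to 12). Cpt1a was 11.23, near the median of 11.21 in the others.

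Neighbouring lists showed the same in part. BXH8 was highest in 11 of 20 other mitochondrial oxidation enzymes, 6 of 18 peroxisomal genes and 3 of 10 pyruvate dehydrogenase genes, but in 1 of 17 genes of uptake and activation, 2 of 19 of the lipid droplet, 1 of 20 nuclear receptors and coregulators and 0 of 10 of malonyl-CoA and AMP kinase. By summed level BXH8 ranked 1 of 21 for uptake and activation too (17.93, others 17.54 to 17.90). For the last 3 lists BXH8 ranked 5, 7 and 19. Its cardiomyocyte marker sum of 21.83 ranked 20 of 21 (others 21.73 to 22.16). This strain was singled out after its values were seen, it is 1 rat in 1 library, and no test was made apart from the outlier criterion given near the end. At the other end, BXH5 was above the strain median in 1 of 30 members, and BXH12 (24), BXH9 (23) and HXB25 (20) came next after BXH8.

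**Figure D3:**
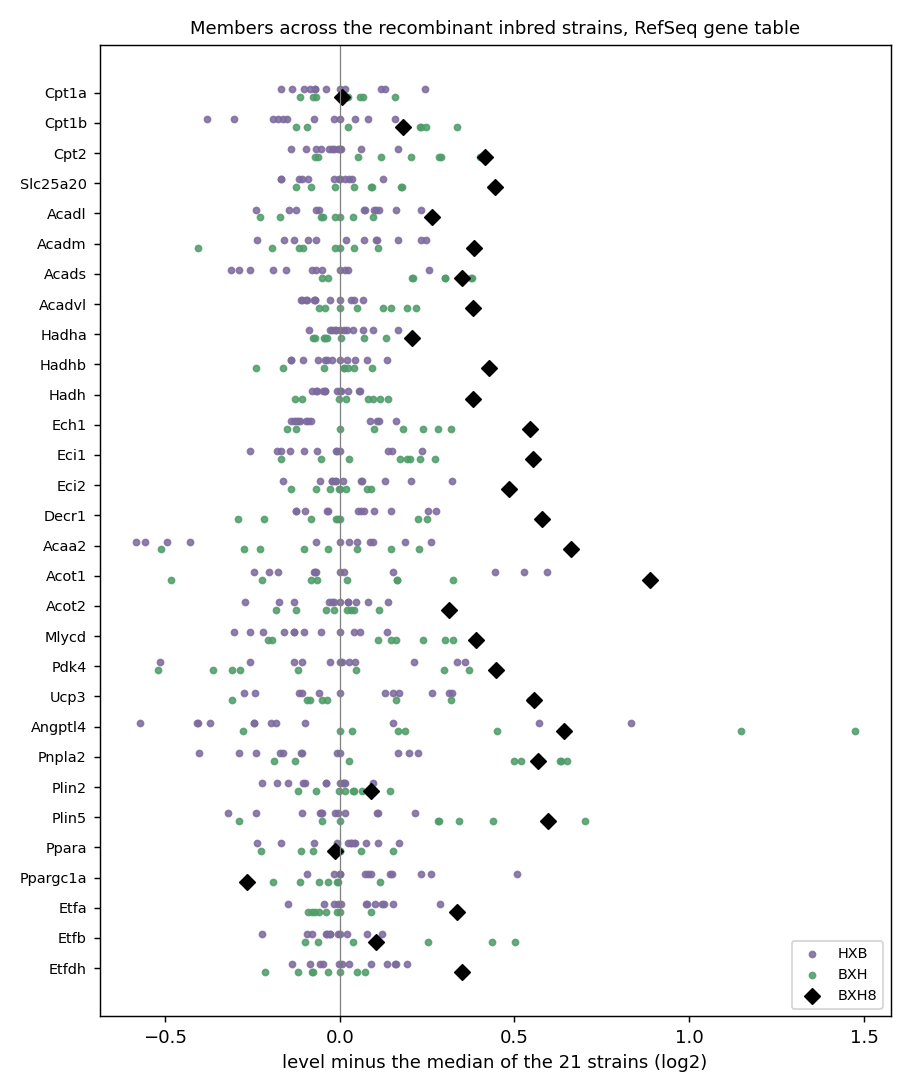
Levels of the 30 members in the 21 recombinant inbred strains, minus the strain median of each gene, on a log2 axis. Purple points are HXB strains, green points BXH strains and the black diamond is BXH8, which is the point farthest to the right in 20 of 30 genes. Angptl4 has the widest spread.

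HXB and BXH, the families of the reciprocal crosses, were then compared with batch in the fit. Limma called 11 members lower and 1 higher in HXB of 30, where 36.3% of all RefSeq genes were called (18.5% higher and 17.8% lower). The lower genes were Cpt1b (-0.24), Cpt2 (-0.20), Acads (-0.33), Acadvl (-0.16), Ech1 (-0.20), Eci1 (-0.20), Etfb (-0.18), Mlycd (-0.25), Angptl4 (-0.53), Pnpla2 (-0.44) and Plin5 (-0.31), and the higher one was Ppargc1a (0.22). Acads was 13.02 to 13.59 in HXB (median 13.26) and 13.28 to 13.71 in BXH (median 13.63), with an adjusted p = 0.000879 (SE 0.07). Pnpla2 was 11.72 to 12.35 in HXB (median 12.01) and 11.94 to 12.78 in BXH (median 12.64), with an adjusted p = 0.00373 (SE 0.11). The families overlapped in both genes. Within batch 3, with 9 HXB and 6 BXH strains, 12 members were lower and 1 higher, where 6787 of all 19100 genes were called in either direction. There Acads differed by -0.37 and Pnpla2 by -0.61 (batch 2 has 3 strains of each family and was not fitted alone). Without BXH8, Ech1 (-0.15, adjusted p = 0.0716), Eci1 (-0.15, 0.0788) and Angptl4 (-0.51, 0.0675) no longer passed. After quantile normalization Cpt1b, Acadvl, Ech1, Eci1 and Etfb did not pass.

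These family differences went with the repeat-library score, which on RefSeq genes was made from the 2 later libraries of SHR replicate 4. Over the 21 strains it followed the first principal component of all RefSeq genes, which held 32.8% of the variance (Pearson correlation 0.959). A fit with the score therefore also takes out most of that main axis of variation. The score ran from -0.495 to 1.15 in HXB (median 0.349) and from -0.987 to 0.36 in BXH (median -0.602). Batch and score together explained 0.57 of the variance of family membership. With the score in the fit, chosen after seeing the data, limma called 0 of 19100 genes and 0 members (1594 genes and 0 members had an unadjusted p under 0.05, against 8759 and 13 without it). Acads then differed by -0.11 (SE 0.08), Pnpla2 by -0.15 (SE 0.15), Cpt1b by 0.01 (SE 0.08), Plin5 by 0.00 (SE 0.10) and Ppargc1a by 0.02 (SE 0.08). The score is computed from the same libraries, and family and score cannot be told apart here. On RefSeq transcripts, 2 of 52 member transcripts were higher and 12 lower in HXB (19% of 39592 called, 10.4% higher and 8.63% lower), and with the score 0 were called by limma (3261 transcripts had an unadjusted p under 0.05, against 12892).

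**Figure D4:**
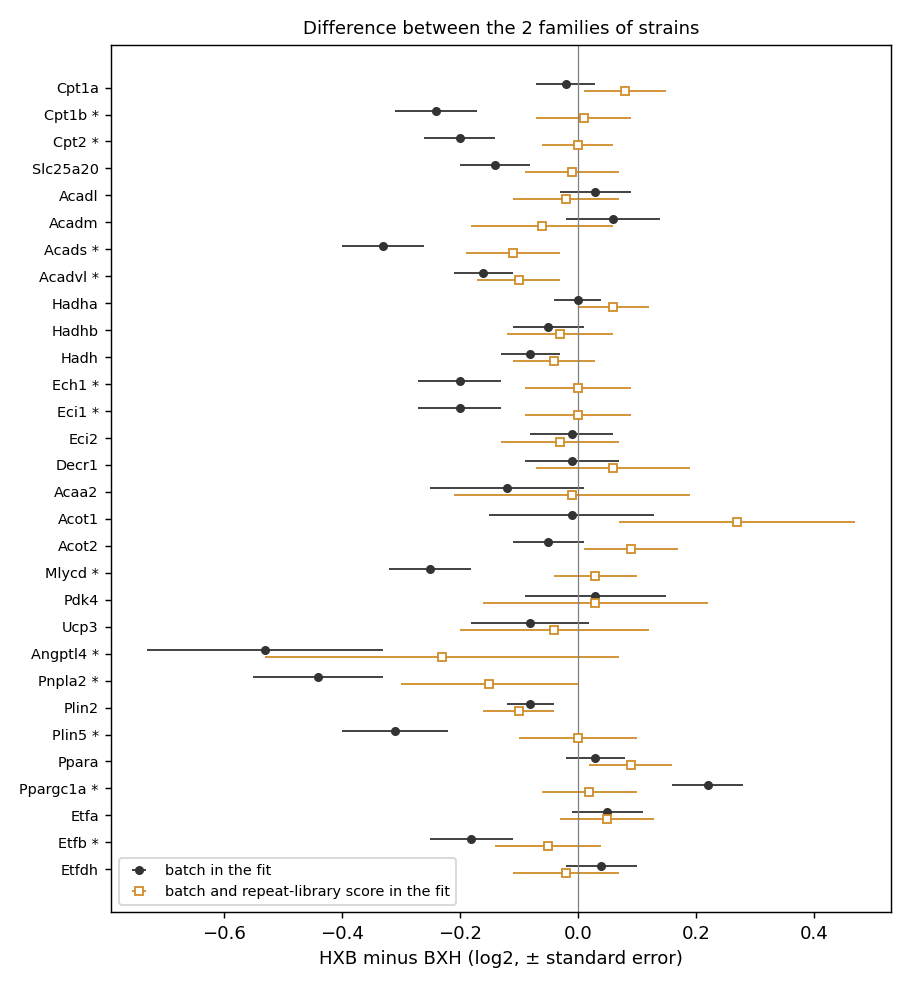
Difference between 12 HXB and 9 BXH strains for each of the 30 members (log2, ± standard error) with batch in the fit (dark points) and with batch and the repeat-library score (open squares). Asterisks mark the 12 limma calls of the first fit, and with the score the points of Acads and Pnpla2 move from -0.33 and -0.44 to -0.11 and -0.15.

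Normal mixtures fitted to each gene over the 21 strains, centred within batch, gave 2 or more modes for 6 of 30 members, against 15.6% of all RefSeq genes. Pnpla2 had 14 strains at 11.72 to 12.32 and 7 at 12.35 to 12.78, the upper mode with 6 BXH strains and 1 HXB strain. Cpt2 had 16 strains at 12.92 to 13.23 and 5, all BXH, at 13.26 to 13.47. In Hadhb and Hadh the second mode was BXH8 alone, in Eci2 it held 3 strains and in Etfb 2, both BXH. With the score removed 10 members had 2 or more modes, against 14% of all genes.

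Named pairs of members were tested for a shared pattern over the strains. There were 9 pairs, with values centred within batch, permutation p-values from 100000 resamples and Benjamini-Hochberg adjustment over the pairs. Hadha and Hadhb, the neighbours whose promoter windows are shared, had r = 0.757 (permutation p = 7e-05, adjusted p = 0.000315) and rho = 0.681 (permutation p = 0.00098, adjusted p = 0.00366). Etfa and Etfdh, consecutive electron carriers on chromosomes 8 and 2, had r = 0.793 (permutation p = 4e-05, adjusted p = 0.000315) and rho = 0.673 (permutation p = 0.00122, adjusted p = 0.00366). Pdk4 and Ucp3 had r = 0.70 (permutation p = 0.00043, adjusted p = 0.00129) and rho = 0.732 (permutation p = 0.00029, adjusted p = 0.00261). Without the 2 strains farthest from the median of the first gene, r was 0.571, 0.629 and 0.637, and without BXH8 it was 0.64, 0.697 and 0.649, all past the threshold (adjusted p = 0.00783, 0.00585 and 0.00783).

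Acot1 and Acot2, near copies whose reads can be shared in counting, had r = 0.565 (permutation p = 0.00821, adjusted p = 0.0185) and rho = 0.518 (permutation p = 0.0177, adjusted p = 0.0398). That relation rests on a few strains: r was 0.271 without the 2 farthest and 0.343 (adjusted p = 0.318) without BXH8. The other pairs did not pass. Etfa and Etfb, the subunits of one flavoprotein, had r = 0.0191 and rho = 0.0701 (permutation p = 0.935 and 0.76, adjusted p = 0.935 and 0.76; r = -0.0898 without the 2 farthest). In the assembled gene table that pair had r = 0.563 (permutation test, adjusted p = 0.0143), so its call depends on the table. Pdk4 had r = 0.0269 and rho = -0.174 with Angptl4 (permutation p = 0.907 and 0.45, adjusted p = 0.935 and 0.587) and r = 0.11 and rho = 0.147 with Cpt1a (permutation p = 0.635 and 0.522, adjusted p = 0.817 and 0.587), although all 3 genes were higher in SHR than in BN-Lx. Plin2 and Plin5 had r = 0.214 and rho = 0.153 (permutation p = 0.354 and 0.507, adjusted p = 0.636 and 0.587), and Ppara and Ppargc1a r = -0.183 and rho = -0.21 (permutation p = 0.424 and 0.357, adjusted p = 0.636 and 0.587). As a description, the median r over all 435 pairs of members was 0.323, against -0.0015 over all pairs of RefSeq genes, and it was 0.268 with the score removed and 0.157 without BXH8.

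**Figure D5:**
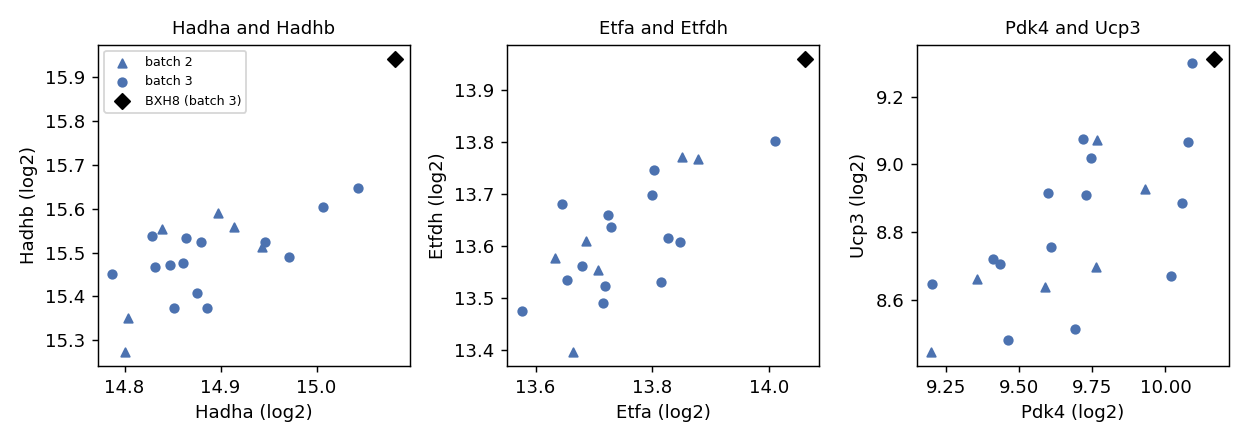
Levels (log2) of Hadha and Hadhb, Etfa and Etfdh, and Pdk4 and Ucp3 in the 21 recombinant inbred strains, with triangles for batch 2, circles for batch 3 and a diamond for BXH8. Each panel rises from lower left to upper right, with r of 0.757, 0.793 and 0.70 after centring within batch, and BXH8 is the top right point of each.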

How the data were processed

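Left ventricles were measured in 31 libraries of total RNA without its ribosomal RNA. Among tools, the submitters' processing notes list HISAT2 2.1.0, RSEM 1.3.1, DESeq2, StringTie 1.3.5, Bowtie2 2.3.4.3 and cutadapt 1.9.1, and as build rn7, without their roles. The authors deposited log2 levels per gene or transcript. No count was given, so depth and counting error are unknown. Spike-in values (70 in the assembled and 69 in the RefSeq tables) were left out.

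Labels gave the groups. The assembled tables served for SHR against BN-Lx, with 8 batch 1 libraries and no covariate. The RefSeq tables served for HXB against BXH, with 21 libraries and a term for batch. Tests were two-sided in limma 3.58.1 under R 4.3.3 (lmFit, eBayes, trend on), and Benjamini-Hochberg adjusted p-values over each whole table were called at 0.05. Modes were fitted with mclust 6.1.1. An assembled gene stood for a symbol when it carried that name alone and had the highest mean. Near copies, and genes that overlap in the assembly, can share reads. RefSeq transcripts were matched to symbols in 72% of 39592. Promoters came from RefSeq, build GRCr8, and were not mixed with rn7 coordinates.

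Litters are not labelled, and p-values reflect no more than the spread between these animals. SHR replicate 4 entered once, with its batch 1 library, and the column names do not settle which later library is batch 2 or 3. The members and lists were chosen with earlier results of these data known. Every member could be named, together with called genes of each other list (at most the 3 with the smallest p) and member transcripts that passed. Dbp and the strains BXH8 and BXH5 were named after their values were seen. Alternatives changed the trend, the normalization (quantile), the low values kept, the libraries fitted or left out, the block and batch terms and the annotation. The repeat-library score and the omission of BXH8 were added after seeing the data. The fits were tested on simulated data. One result of the peroxisomal list is not reported here.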

Additional observations from a re-analysis of the deposited data

Results flagged for a closer look

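In 5 of 78 groups of members tested, 1 library lay far from the others by Dixon's criterion, which chance alone does in about 1 in 20 groups. In 4 of them it was BXH8 among the 9 BXH strains, always as the highest. Hadhb, a subunit of the trifunctional protein, was 15.94 in BXH8, with the nearest BXH strain at 15.60. Eci2, an isomerase of unsaturated acyl-CoA, was 13.06 (nearest 12.66), Etfa, a flavoprotein subunit, was 14.06 (nearest 13.82), and Etfdh, which takes electrons from that flavoprotein, was 13.96 (nearest 13.68). These are values of the same single library. The fifth was Cpt1b, the muscle carnitine palmitoyltransferase, with 14.14 in SHR replicate 3 and the nearest SHR rat at 14.31.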

How the results depend on the processing

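Depth is not known, each strain of the panel has 1 library, and the panel and the progenitors were sequenced in different batches, so no strain was tested against a progenitor.

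Beside the 6603 genes called between SHR and BN-Lx, the count was 3916 when all groups entered the fit with batch as a term, 1438 with the score and, leaving out 1 rat, 4377 (without SHR replicate 4) to 6114. The count of 6 higher members was 3 with the score and 6 to 6 leaving out 1 rat. The count of 3 lower members was 0 without the intensity trend or with all groups in the fit, 1 with the score, and 1 to 5 when 1 rat was left out (lowest for BN-Lx replicates 1 and 3 and SHR replicate 4, highest for SHR replicate 1). Of 5083 transcripts the fit of all groups gave 1174, the score 1510 and leaving out 1 rat 3018 (without SHR replicate 4) to 3722. The count of 8 higher member transcripts was 5 without the trend, 2 with all groups and 1 with the score (5 to 8 without 1 rat). With all groups 1 lower member transcript was called, which was none of the 3 Etfdh forms (adjusted p = 0.0747, 0.0768 and 0.0769), and without 1 rat 3 to 4 were.

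Replicate numbers are shared by SHR and BN-Lx, but same-numbered rats did not deviate together (correlations of 0.19, -0.38, -0.17 and 0.15), so the number was not taken as a pairing. With a replicate block 5437 genes and 1893 transcripts were called, with 6 higher and 3 lower member genes and 4 higher and 2 lower member transcripts. Called transcripts lost under the block were those of Cpt1a (limma adjusted p = 0.0557), Ucp3 (0.0617) and Ppargc1a (0.12), 1 Ppara form (0.0809) and 1 Etfdh form (0.0501).

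For HXB against BXH, 6940 of 19100 genes became 0 with the score (1594 at an unadjusted p under 0.05), and 12871 of 46063 were called in the assembled table. The 1 higher and 11 lower members became 3 and 6 after quantile normalization and 0 and 0 with the score. The 7531 transcripts and the 2 higher and 12 lower member transcripts became 0 with the score, and the 2 higher ones became 1 without the batch term, above the median level only, in batch 3 only or without BXH8. The score turned the sign of Cpt1b (0.01), Mlycd (0.03) and Plin5 (0.00) among genes. Among transcripts it did so for forms of Plin5 (0.02), Cpt1b (0.01), Mlycd (0.03), Ppargc1a (-0.02) and Cpt2 (0.06), none past the threshold. The 6 members with 2 or more modes became 10 with the score removed. Apart from the construction of each alternative, the cause was not tested. A count on the earlier assembly was planned and not run, because no BN-Lx columns were found in that gene table.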

Other observations

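For Cpt1a, 1 RefSeq transcript was matched to the symbol, and it lay far below the gene, so it stands for a minor part of it. This transcript ran from 3.75 to 8.53 over the 21 strains, while the gene ran from 11.06 to 11.47. The later libraries of SHR replicate 4, which are from 1 rat, gave 4.21 and 7.02 for this transcript and 11.38 each for the gene. The assembled gene named Cpt1b (chromosome 7, 120480802 to 120504363) holds 11 transcripts, of which the main one ends at 120500653 and several others lie apart from it, beginning at 120500960 or beyond. The assembled gene named Plin5 (chromosome 9, 929168 to 946188) likewise holds transcripts that end at 938752 and others that begin at 939745, 18 in all. Levels of these assembled genes and of the RefSeq genes of the same names had Spearman rho of 0.96 (Cpt1b) and 0.87 (Plin5) over the 21 strains, as a description. Their heights differed for Plin5: a later library of SHR replicate 4 gave 13.71 for the assembled gene and 10.86 for the RefSeq gene. For Cpt1b that library gave 13.95 and 14.21. How much of the assembled level belongs to Plin5 was not tested.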
